A study of Mus musculus with 6 samples.

Results

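Chemokines are small secreted proteins that draw leukocytes along a gradient by acting on G protein-coupled receptors. They are grouped by their conserved cysteines, which lie next to each other in CC ligands and are separated by another residue in CXC ligands. In macrophages, lipopolysaccharide (LPS) acting on TLR4 switches many of these genes on through NF-kB, and others depend more on the interferon beta that the same cells release. The genes described here are 10 chemokine ligand genes out of 55335 genes in the table, chosen by symbol with earlier results of these data known. Of these, 7 are of the CC class (Ccl2, Ccl3, Ccl4, Ccl5, Ccl7, Ccl9 and Ccl22) and 3 of the CXC class (Cxcl2, Cxcl10 and Cxcl16). Each symbol matched 1 mouse Ensembl gene.

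The data are poly(A) RNA sequencing of RAW 264.7 cells, a mouse macrophage line transformed by a murine leukaemia virus and labelled wild type. In the 3 LPS plus ultrasound libraries the cells received LPS at 200 ng/ml over 8 h and, within that time, 10 min of pulsed ultrasound (1 MHz, 50 mW/cm², duty cycle 20%, pulses of 200 µs repeated at 1 kHz). In the 3 LPS libraries the cells received the same LPS and no ultrasound. Unstimulated cells were not analysed here, so a level below says nothing of how far LPS induced the gene. The comparison asks whether ultrasound alters chemokine transcripts in LPS-treated macrophages. All values come from 1 cell line in culture, and no label tells if replicates are separate cultures. The p-values therefore measure only how these libraries vary, possibly for technical reasons.

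The libraries carried macrophage transcripts. The Fc receptor subunit gene Fcer1g, the lysosomal gene Cd68 and Laptm5 averaged 899, 656 and 326 FPKM over the 6 libraries. FPKM counts fragments relative to the length of the transcript and the size of the library. The labels' extraction text names rat muscle, yet the muscle marker with the highest mean, Mylpf, averaged 0.587 FPKM over the libraries (highest 0.896, in ultrasound library 2) and the myosin genes Myh4 and Myh1 were listed at 0. Summed markers ran from 0.884 to 1.42 FPKM with ultrasound and 0.956 to 1.29 with LPS for muscle, and were under 1.1 FPKM in every library for the fibroblast, neutrophil, B cell and endothelial lists (highest members Col1a1, S100a8, Cd79a and Cdh5). Of the dendritic and T cell lists, Itgax (9.80 FPKM) and Lck (7.78 FPKM) were each the only member with a mean of at least 1 FPKM. LPS library 2 correlated at 0.989 to 0.994 with the other libraries on log2(FPKM + 1) across genes, against 0.992 to 0.996 among the rest. Results without it are given below for the ligands and for the counts over all genes. Those of the other gene lists are given only with it.

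Promoter sequences were looked up because many chemokine ligand genes are known NF-kB targets. Of the 10 genes, 5 matched the RefSeq promoter table (GRCm38.p6, windows of 300 bases). The consensus of NF-kB, searched by name on both strands, was found in 3 of these 5 windows, those of Cxcl2, Cxcl10 and Ccl9, and in 8.46% of the 32851 windows of the table. The bases upstream of the annotated start are shown for those 3 genes and for Ccl3, the most abundant ligand, with matches to the consensus in capitals.
Cxcl2, chr5:90903649-90903898 (+ strand): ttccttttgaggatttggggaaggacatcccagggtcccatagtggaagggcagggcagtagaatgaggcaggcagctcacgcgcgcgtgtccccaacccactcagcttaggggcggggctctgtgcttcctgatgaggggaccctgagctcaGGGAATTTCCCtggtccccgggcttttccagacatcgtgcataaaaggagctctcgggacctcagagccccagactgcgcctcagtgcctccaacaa
Cxcl10, chr5:92348890-92349139 (- strand): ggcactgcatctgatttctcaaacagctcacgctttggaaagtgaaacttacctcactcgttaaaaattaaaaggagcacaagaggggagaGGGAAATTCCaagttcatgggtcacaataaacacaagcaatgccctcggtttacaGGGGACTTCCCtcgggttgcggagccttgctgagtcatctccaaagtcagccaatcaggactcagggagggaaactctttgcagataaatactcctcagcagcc
Ccl9, chr11:83578637-83578886 (- strand): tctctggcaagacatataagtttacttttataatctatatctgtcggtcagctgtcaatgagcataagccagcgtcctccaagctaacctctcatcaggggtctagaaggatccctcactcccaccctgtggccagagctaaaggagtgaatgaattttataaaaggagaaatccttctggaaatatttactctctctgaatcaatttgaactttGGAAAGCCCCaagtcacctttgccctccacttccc
Ccl3, chr11:83649379-83649628 (- strand): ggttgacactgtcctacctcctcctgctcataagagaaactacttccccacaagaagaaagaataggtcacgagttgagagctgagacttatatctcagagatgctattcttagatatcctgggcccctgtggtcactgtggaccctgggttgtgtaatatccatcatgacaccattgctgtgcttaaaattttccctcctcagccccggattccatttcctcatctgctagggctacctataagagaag

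The Cxcl2 window held overlapping matches beginning 97 and 96 bases before the start. That of Cxcl10 held matches at 159, 104 and 103 bases, of which the last pair overlap, and that of Ccl9 a match at 35 bases. The letters TGANTCA, the AP-1 element, searched on both strands, occurred in the Cxcl10 and Ccl9 windows and in 7.81% of all, and TATAAA in that of Ccl9 and in 13.6% of all. The Ccl3 and Ccl22 windows held none of these motifs, which says only that these letters are not in these windows.

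The ligands differed in level by several orders of magnitude. Since FPKM is per length, levels can be set side by side, but the lengths used by the authors are not known. In GENCODE M21 the transcripts of Ccl9 run from 398 to 3006 bases and those of Cxcl2 from 397 to 2066. Ccl3 has 1 transcript of 766 bases. The order of genes below is thus that of the deposited values. Ccl3 led in all 6 libraries and made up 58.7% to 62.8% of the summed FPKM of the 10 genes with ultrasound and 53.3% to 62.0% with LPS. In the ultrasound libraries the order by mean was Ccl3, Ccl5, Ccl9, Ccl4, Ccl22, Cxcl2, Cxcl16, Ccl2, Cxcl10 and Ccl7, and with LPS it was Ccl3, Ccl5, Ccl4, Ccl9, Cxcl2, Ccl22, Cxcl16, Ccl2, Cxcl10 and Ccl7. The ranges of neighbours in this order overlapped from Ccl5 down to the 6th place in both groups, and for Cxcl16 and Ccl2 with LPS, so those neighbours were not told apart by their ranges. Some of them still kept 1 order in 3 of 3 libraries, Ccl22 above Cxcl2 with ultrasound, and Ccl9 above Cxcl2 and Cxcl16 above Ccl2 with LPS. Of genes further apart in the order, Ccl5 and Ccl9 lay wholly above Ccl22 and Cxcl2 with ultrasound. Ccl3 lay apart at the top in both groups, as did Cxcl10 and Ccl7 at the bottom.

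The 10 genes together held 0.436%, 0.726% and 0.451% of the summed FPKM in ultrasound libraries 1, 2 and 3, against 0.660%, 1.28% and 0.686% in LPS libraries 1, 2 and 3. Each ultrasound library lay below the LPS library of the same number, while ultrasound library 2 lay above LPS libraries 1 and 3. Fewer transcribing cells and less RNA per cell cannot be told apart in such bulk values.

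**Figure D1:**
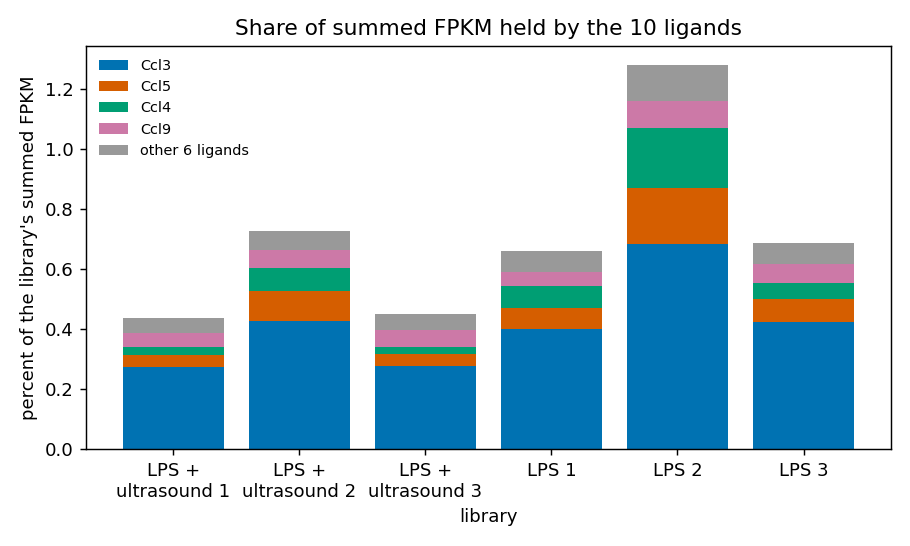
Percent of each library's summed FPKM held by the 10 ligand genes, stacked by gene (the 4 genes with the highest mean, and the other 6 together), for 3 LPS plus ultrasound and 3 LPS libraries. Library 2 is the highest of its group on each side (0.726% with ultrasound and 1.28% with LPS), and Ccl3 is the largest part of every bar.

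The CC ligands Ccl3, Ccl4 and Ccl5, which attract monocytes and T cells, were lower with ultrasound in every same-numbered pair of libraries. Ccl4, also known as MIP-1 beta, had 78.7, 223 and 68.8 FPKM in ultrasound libraries 1, 2 and 3, against 206, 571 and 152 FPKM in LPS libraries 1, 2 and 3. The groups overlapped, because ultrasound library 2 lay above LPS libraries 1 and 3, but each pair differed by a similar factor. The level with ultrasound was 0.383, 0.391 and 0.452 of that with LPS in pairs 1, 2 and 3. Mean Ccl4 was 124 ± 86.4 FPKM with ultrasound and 310 ± 228 FPKM with LPS (SD, n = 3 each), a log2 fold change of -1.29 ± 0.61. Fold changes here are differences of log2(FPKM + 1), ultrasound minus LPS, ± SE, a scale that understates the change of low genes. P-values are adjusted by Benjamini-Hochberg (BH) over all genes tested. Ccl4 did not pass without a block (limma BH-adjusted p = 0.37) and fell with the replicate number as a block (SE 0.06, limma BH-adjusted p = 0.023).

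Ccl5, or RANTES, had 115, 292 and 117 FPKM in ultrasound libraries 1, 2 and 3, against 194, 543 and 217 FPKM in LPS libraries 1, 2 and 3. Its pairs were also even, at 0.593, 0.538 and 0.540 of the LPS level, and library 2 was again the highest in each group. The means were 175 ± 102 FPKM with ultrasound and 318 ± 195 FPKM with LPS (SD, n = 3 each), and the log2 fold change of -0.84 ± 0.50 was not called without a block (limma BH-adjusted p = 0.45). With the block Ccl5 fell (SE 0.05, limma BH-adjusted p = 0.035).

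Ccl3, or MIP-1 alpha, which acts on CCR1, had 783, 1245 and 793 FPKM in ultrasound libraries 1, 2 and 3, against 1119, 1955 and 1220 FPKM in LPS libraries 1, 2 and 3. Ultrasound library 2 lay just above both lower LPS libraries, so the groups overlapped. The pairs stood at 0.700, 0.637 and 0.650 of the LPS level. The log2 fold change of -0.60 ± 0.26 passed in neither fit (limma BH-adjusted p = 0.33, and 0.057 when blocked by replicate).

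The level of Ccl4 relative to Ccl3 in the same library was 0.101, 0.179 and 0.0868 with ultrasound in libraries 1, 2 and 3, against 0.184, 0.292 and 0.125 with LPS. The ranges overlapped, and the mean log2 ratio was -3.11 with ultrasound and -2.41 with LPS over the 3 libraries of each group. In each same-numbered pair the relative level was lower with ultrasound. A two-sided exact permutation test over libraries, which ignores the pairs, gave p = 0.20. The same permutation test gave p = 0.50 for Ccl5 and p = 0.30 for Cxcl2 relative to Ccl3. With 3 against 3 it cannot go below 0.10, so it does not decide whether the neighbouring genes Ccl4 and Ccl3 differ in response. In the RefSeq gene order Ccl5, Ccl9, Ccl6, Ccl3 and Ccl4 follow each other on chromosome 11, and Ccl6, between Ccl9 and Ccl3, was under 1 FPKM in every library.

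**Figure D2:**
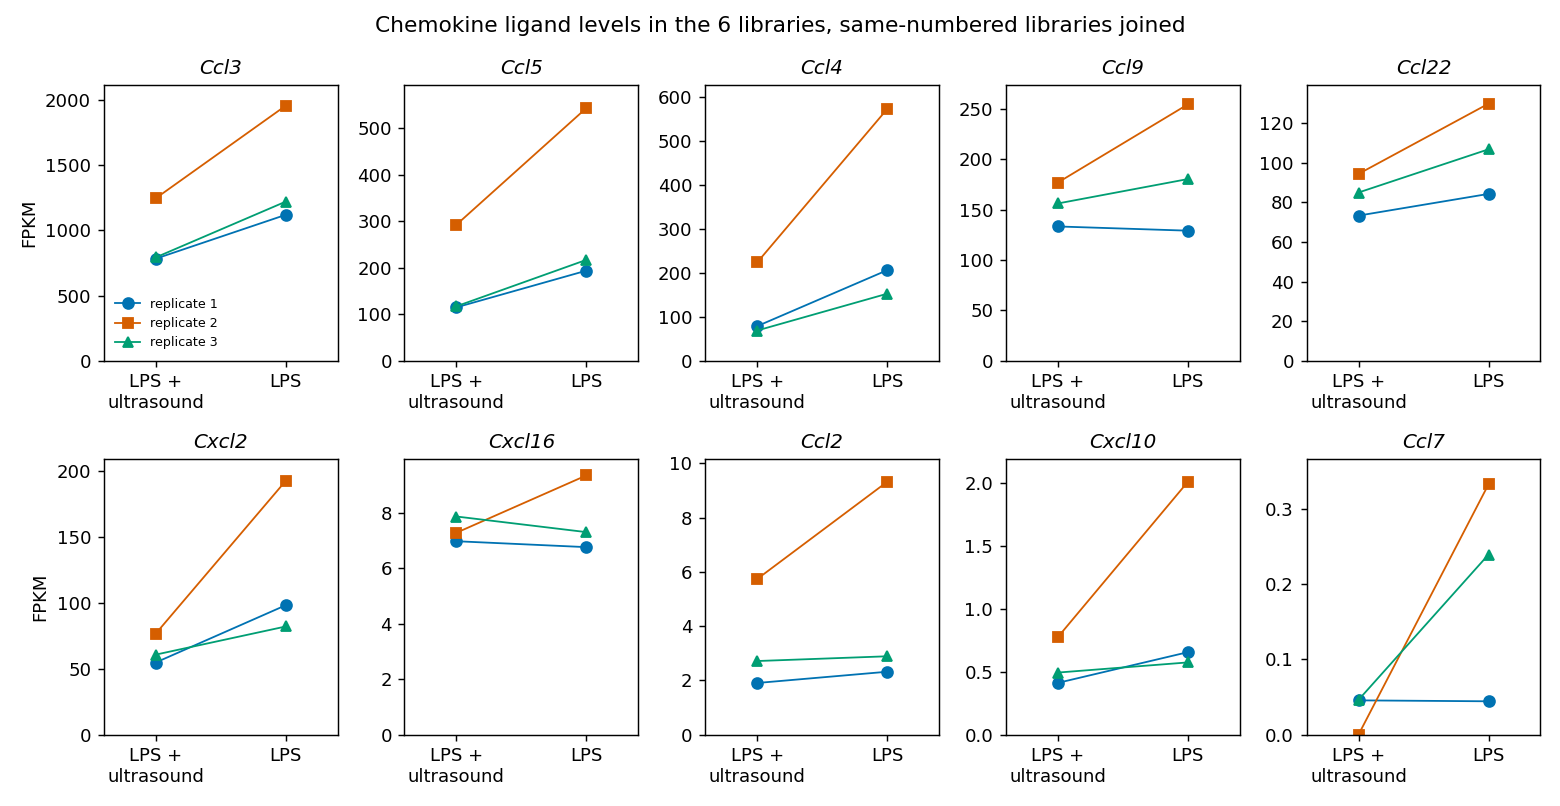
FPKM of each of the 10 ligand genes (linear axes from 0, one panel a gene, ordered by mean) in LPS plus ultrasound and LPS libraries, with lines joining libraries of the same number. For Ccl3, Ccl4 and Ccl5 the 3 lines run at similar ratios and library 2 stands highest in both groups. Of the 8 tested genes only Cxcl2 has groups that do not overlap. Its ultrasound libraries all lie below its LPS libraries, as for 13.4% of all genes tested.

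Cxcl2, which attracts neutrophils through CXCR2, was the tested ligand whose groups were separate. It had 54.8, 76.7 and 60.7 FPKM in ultrasound libraries 1, 2 and 3, against 98.3, 193 and 82.1 FPKM in LPS libraries 1, 2 and 3. Every ultrasound library lay below every LPS library, as for 13.4% of all genes tested. The pairs were uneven, at 0.557, 0.398 and 0.740 of the LPS level. The means were 64.1 ± 11.3 FPKM with ultrasound and 124 ± 59.8 FPKM with LPS (SD, n = 3 each), a log2 fold change of -0.86 ± 0.30 that passed in neither fit (limma BH-adjusted p = 0.27, and 0.087 when blocked by replicate). Library 2 held 1.33 times the mean of libraries 1 and 3 with ultrasound and 2.14 times with LPS. For Ccl4 these ratios were closer, at 3.03 with ultrasound and 3.19 with LPS, as they were for Ccl5, at 2.52 with ultrasound and 2.64 with LPS.

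Ccl22, a CCR4 ligand that attracts regulatory and type 2 helper T cells, had 73.3, 94.4 and 85.0 FPKM in ultrasound libraries 1, 2 and 3, against 84.3, 130 and 107 FPKM in LPS libraries 1, 2 and 3. It was lower in each pair, with overlapping groups, and passed in neither fit (log2 fold change -0.33 ± 0.16, limma BH-adjusted p = 0.39, and 0.072 when blocked by replicate). Ccl9, a CCR1 ligand of the mouse, had 133, 177 and 156 FPKM in ultrasound libraries 1, 2 and 3, against 129, 255 and 180 FPKM in LPS libraries 1, 2 and 3. Pair 1 was higher with ultrasound by 0.05 on the log2 scale, and pairs 2 and 3 were lower with ultrasound. The gene was not called (-0.23 ± 0.23, limma BH-adjusted p = 0.65, and 0.26 when blocked by replicate).

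The CCR2 ligands, which draw inflammatory monocytes, were low in these cells. Ccl2, or MCP-1, had 1.90, 5.73 and 2.71 FPKM in ultrasound libraries 1, 2 and 3, against 2.32, 9.31 and 2.89 FPKM in LPS libraries 1, 2 and 3. The difference lay mainly in pair 2, at 0.615 of the LPS level, while pairs 1 and 3 stood at 0.821 and 0.939 (log2 fold change -0.29 ± 0.48, limma BH-adjusted p = 0.79, and 0.19 when blocked by replicate). Ccl7, its neighbour on chromosome 11, had 0.0454 FPKM in ultrasound library 1, was listed at 0 in library 2 and had 0.0461 in library 3, against 0.0442, 0.332 and 0.239 FPKM in LPS libraries 1, 2 and 3. Ccl7 was left untested, since its mean was under the 1 FPKM that the test required.

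Cxcl10, an interferon-induced CXCR3 ligand that attracts activated T cells, was also under that limit. It had 0.412, 0.776 and 0.494 FPKM in ultrasound libraries 1, 2 and 3, against 0.656, 2.01 and 0.575 FPKM in LPS libraries 1, 2 and 3, lower in each pair with overlapping groups. In a fit with no filter on low values Cxcl10 and Ccl7 were not called (limma BH-adjusted p = 0.69 and 0.55, and 0.41 and 0.39 when blocked by replicate). Cxcl16, a membrane-bound CXCR6 ligand that ADAM10 sheds, had 6.97, 7.28 and 7.86 FPKM in ultrasound libraries 1, 2 and 3, against 6.76, 9.34 and 7.30 FPKM in LPS libraries 1, 2 and 3. It was slightly higher with ultrasound in pairs 1 and 3 and lower in pair 2, and its log2 fold change of -0.06 ± 0.12 was within the spread of the libraries (limma BH-adjusted p = 0.82, and 0.70 when blocked by replicate). In GENCODE M21 the exons of Cxcl16 and Cxcl10 share 552 and 133 bases with the opposite-strand genes Zmynd15 and Art3, which were under 0.4 FPKM in every library, and without a stated strand setting such reads cannot be told apart.

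**Figure D3:**
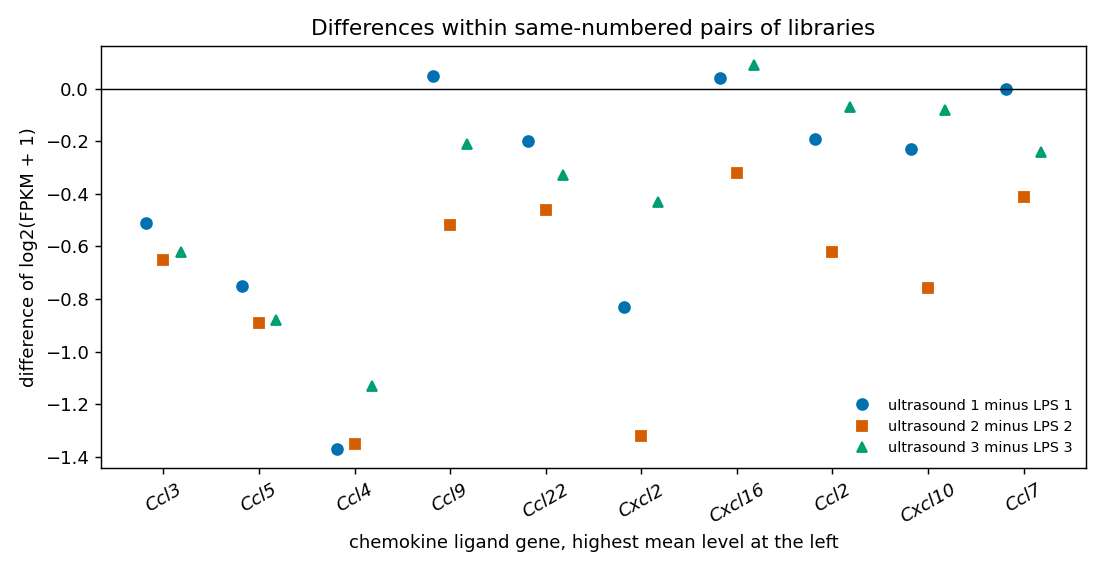
Difference of log2(FPKM + 1), ultrasound minus LPS, within each same-numbered pair of libraries, for the 10 ligand genes ordered by mean level. The 3 points of Ccl3 and Ccl5 lie close together (SD 0.07 and 0.08), those of Cxcl2 are spread (SD 0.45), and Cxcl16 has points on both sides of 0.

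Of the 8 tested ligands, limma without a block called 0 lower and 0 higher, against 0% of 11270 genes lower and 0.0177% higher. At an unadjusted limma p below 0.05, Cxcl2 alone was lower, 1 of 8 against 9.16% of all genes. With the replicate block, limma called Ccl4 and Ccl5 lower, 2 of 8 against 0.0799% of all genes, and 0 higher against 0.0355%. At an unadjusted p below 0.05 with the block, 5 of 8 were lower (Ccl3, Ccl4, Ccl5, Ccl22 and Cxcl2) against 17.1%. All 8 had a log2 fold change below 0, as did 53.9% of all genes, with a median of -0.46 against -0.02 over all genes tested. Of the 8, 6 were lower with ultrasound in 3 of 3 pairs, against 30.9% of all genes. The ligands were chosen with earlier results of these data known, so these counts do not test the ligands as a group. Of the further chemokine ligands 2 were tested, 1 below 0 (Ccl17, -0.29) and 1 above it (Ccl25, 0.19, higher in 3 of 3 pairs).

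**Figure D4:**
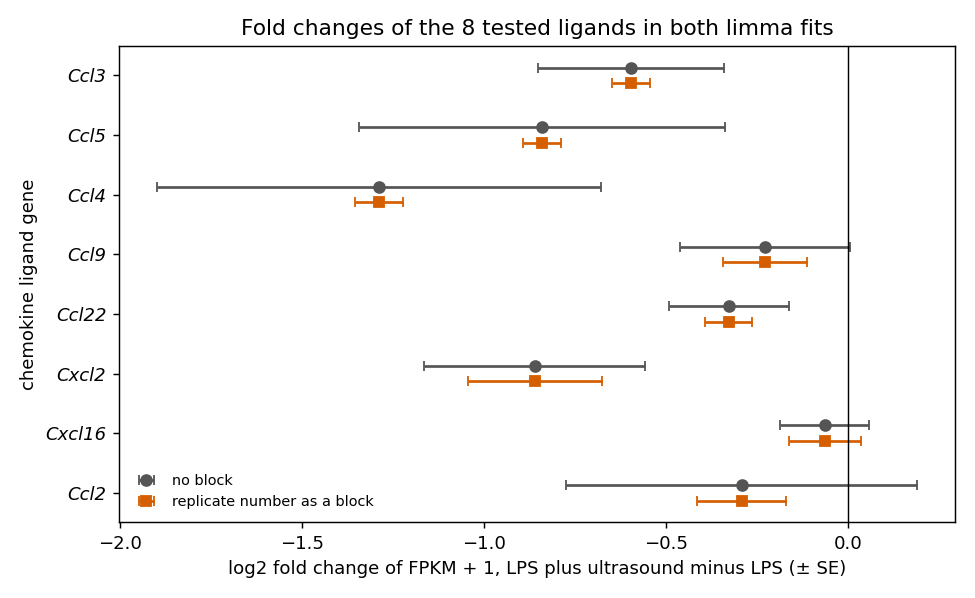
Log2 fold change (± SE) of the 8 tested ligand genes, LPS plus ultrasound minus LPS, in limma fits without a block (circles) and with the replicate number as a block (squares), on log2(FPKM + 1). The estimates are the same in both fits, and the SE of Ccl4 is 0.61 without the block and 0.06 with it.

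The calls of Ccl4 and Ccl5 rest on pairing the libraries by title number, and no label states that these are pairs. Without LPS library 2 and with no block, the log2 fold changes were -0.73 for Ccl4, -0.37 for Ccl5, -0.35 for Ccl3 and -0.50 for Cxcl2, and those of Ccl2, Ccl9 and Cxcl16 turned to 0.22, 0.02 and 0.06. With the block but without both libraries numbered 2, Ccl4 and Ccl5 stood at -1.25 and -0.82. They were no longer called (limma BH-adjusted p = 0.090 for both). Without both libraries numbered 3 they stood at -1.36 and -0.82 and were not called (limma BH-adjusted p = 0.16 and 0.27). Both of these fits called 0 genes higher and 0 lower over all genes tested. Ccl4 and Ccl5 were called without both libraries numbered 1 (limma BH-adjusted p = 0.037 and 0.044). That fit called 7 genes higher and 9 lower over all genes tested.

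Library 2 carried the highest chemokine levels in both groups. Of the 8 tested ligands, 7 peaked in library 2 of the ultrasound group, against 45.4% of all genes, and 8 in library 2 of the LPS group, against 38.3%. Cxcl16 was the exception, at its highest in ultrasound library 3. The part that library 2 plays in these results was measured only by leaving it out.

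Few other chemokine ligands were present. Of 28 further ligand genes, Ccl17 and Ccl25 had a mean of at least 1 FPKM and 11 were listed at 0 in all 6 libraries. Ccl17, a CCR4 ligand like Ccl22, averaged 1.23 ± 0.33 FPKM with ultrasound and 1.85 ± 1.18 FPKM with LPS, and Ccl25, a CCR9 ligand, averaged 2.21 ± 0.30 FPKM with ultrasound and 1.81 ± 0.37 FPKM with LPS (SD, n = 3 each). Neither passed (limma BH-adjusted p = 0.62 and 0.50, and 0.31 and 0.17 when blocked by replicate).

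Of 23 chemokine receptor genes 4 were tested and 0 were called in either limma fit, with a median log2 fold change of -0.13. At an unadjusted limma p below 0.05 without the block, 1 of 4 was lower (Ccrl2), against 9.16% of all genes. Another, Cxcr3, was higher at that limit, as were 697 of 11270 genes. The receptor-like gene Ccrl2, whose product binds the chemoattractant chemerin, had 17.5, 17.9 and 20.7 FPKM in ultrasound libraries 1, 2 and 3, against 35.0, 63.1 and 41.5 FPKM in LPS libraries 1, 2 and 3 (log2 fold change -1.23 ± 0.20, limma BH-adjusted p = 0.13, and 0.068 when blocked by replicate). Its ultrasound libraries all lay below its LPS libraries, as for 13.4% of all genes tested. Cxcr3, the receptor of Cxcl10, averaged 8.84 ± 0.90 FPKM with ultrasound and 7.17 ± 0.53 FPKM with LPS, and Ccr10 1.38 ± 0.12 FPKM with ultrasound and 1.43 ± 0.51 FPKM with LPS (SD, n = 3 each).

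Of 10 protease genes that cut chemokines 3 were tested and 0 called in either fit. At an unadjusted limma p below 0.05 without the block, 1 of 3 was lower (Mmp9), against 9.16% of all genes. Adam17 was higher at that limit, as were 697 of 11270 genes. Adam10 averaged 26.2 ± 5.92 FPKM with ultrasound and 26.1 ± 2.10 FPKM with LPS, and Adam17, a related sheddase gene, 41.5 ± 2.50 FPKM with ultrasound and 35.2 ± 3.63 FPKM with LPS (SD, n = 3 each). The gelatinase gene Mmp9 averaged 2.57 ± 0.24 FPKM with ultrasound and 4.61 ± 1.53 FPKM with LPS. Of 9 genes for proteins that set mRNA stability, all were tested, 4 had a log2 fold change below 0 and 5 above it, and 0 were called in either limma fit or had an unadjusted p below 0.05 without the block. The median log2 fold change was 0.00. Zfp36, whose product destabilises cytokine mRNAs, averaged 51.1 ± 0.87 FPKM with ultrasound and 55.7 ± 8.47 FPKM with LPS, and Rc3h1 and Khsrp had log2 fold changes of 0.00 ± 0.12 and -0.14 ± 0.07.

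All 15 NF-kB subunit and regulator genes were tested, and 11 had a log2 fold change below 0 and 4 above it, where 53.9% of all genes were below 0. The median was -0.12, against -0.02 over all genes, and 0 were called in either fit. At an unadjusted limma p below 0.05 without the block, 4 of 15 were lower, against 9.16% of all genes, and 0 higher. In 3 of 3 same-numbered pairs 8 of 15 were lower with ultrasound and 1 higher, against 30.9% and 24.3% of all genes. Nfkbia, the inhibitor gene that NF-kB itself induces, had 190, 206 and 206 FPKM in ultrasound libraries 1, 2 and 3, against 309, 465 and 231 FPKM in LPS libraries 1, 2 and 3 (log2 fold change -0.68 ± 0.23, limma BH-adjusted p = 0.25, and 0.14 when blocked by replicate). Its ultrasound libraries all lay below its LPS libraries, as for 13.4% of all genes tested. Nfkb2 had a log2 fold change of -0.41 ± 0.11 and Tnip1 of -0.01 ± 0.10.

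Of 15 genes of the interferon beta axis 13 were tested, and 12 had a log2 fold change below 0 and 1 above it, again beside 53.9% of all genes below 0, with a median of -0.41. Without a block 0 were called, with 2 of 13 lower at an unadjusted limma p below 0.05, against 9.16% of all genes. With the block 1 was called lower, against 0.0799% of all genes. In 3 of 3 same-numbered pairs 12 of 13 were lower with ultrasound and 0 higher, against 30.9% and 24.3% of all genes. Ifit1, the gene that passed with the block, had 4.68, 12.3 and 2.99 FPKM in ultrasound libraries 1, 2 and 3, against 11.1, 24.3 and 6.62 FPKM in LPS libraries 1, 2 and 3 (log2 fold change -0.98 ± 0.56, limma BH-adjusted p = 0.43, and 0.035 when blocked by replicate). Library 2 was highest in each group, as for Ccl4 and Ccl5. Isg15, Oasl1 and Rsad2 had log2 fold changes of -0.55 ± 0.30, -0.22 ± 0.24 and -0.77 ± 0.50 and were not called.

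**Figure D5:**
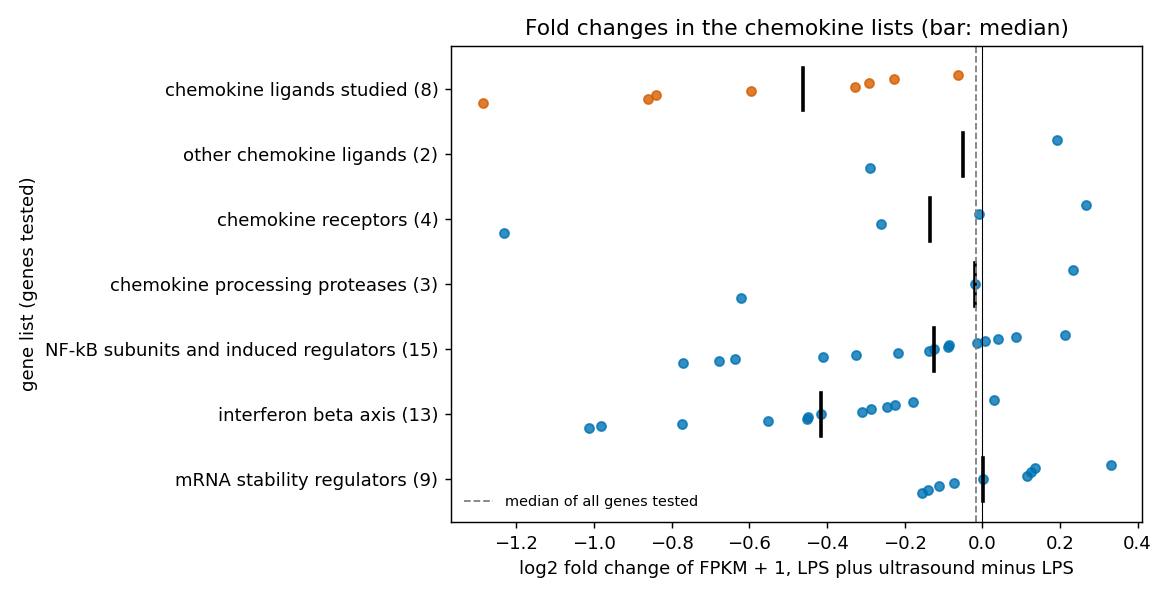
Log2 fold changes, LPS plus ultrasound minus LPS, of the tested genes of 7 lists (points), with the median of each list (bar) and that of all genes tested (dashed line). The ligand median is -0.46, that of the interferon beta axis -0.41, that of the NF-kB list -0.12 and that of the mRNA stability list 0.00.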

How the data were processed

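RNA from RAW 264.7 cells was sequenced as paired ends after poly(A) selection, per the labels' protocols. The deposited table holds FPKM per mouse Ensembl gene, computed by the authors, 1 column a library. The aligner, quantifier and annotation were not given in the sources used here, and the one build in the submitters' processing notes, mRatBN7.2, is a rat build while all identifiers are mouse ones, so only promoter positions of the RefSeq table (GRCm38.p6) are printed. Columns were matched to titles by initial and number, and 55154 of 55335 identifiers had a symbol. No counts were recovered: at the best step, 34.7% to 38.6% of low values of single-transcript genes were whole multiples (within 0.05 of a step), so the depth is unknown and no counting interval is given. Library sums were 278871 to 292200 FPKM, and since 10 genes were at 0 somewhere and yet exceeded 5 FPKM in another library, a 0 can be a failed estimate.

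The 11270 genes averaging 1 FPKM or more across the libraries entered a two-sided limma test (version 3.58.1, R 4.3.3) of log2(FPKM + 1). Variances were moderated robustly with a trend, and p-values were adjusted by Benjamini-Hochberg over all these genes and read at 0.05. The fit without a block is the main one. Deviations from the group means correlated at 0.18, 0.44 and 0.41 between libraries numbered 1, 2 and 3, taken across genes. On these values the shared title numbers were taken to pair the libraries, and the fit with the number as a block is given beside it. Correlations between differently numbered libraries were not computed, so the values do not show that the numbers mark pairs. No label states such pairs. The pairing and the blocked fit thus draw partly on the same values. The ligands, lists and tests were chosen with earlier results of these data known. Named genes are the 10 ligands, other ligands with a mean of at least 1 FPKM, the 3 highest members of each other pathway list and any member called in either fit, and the highest cell type markers; Ccl6, Myh1, Myh4 and the genes overlapping a ligand were named after their values were seen. The fits were run on simulated data with independent noise in each library. These simulated data held no shared effect of the library number, so they do not check the pairing. Figures were drawn with matplotlib 3.10.9. Alternatives were the pseudocount, the filter, 4 scalings, moderation, sample weights, the threshold, the block and leaving out libraries.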

Additional observations from a re-analysis of the deposited data

How the results depend on the processing

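Without the block, 0 ligands were called under any alternative, and each tested ligand kept a negative log2 fold change (8 ligands, but 10 with no filter and 7, without Ccl2, at a mean of at least 5 FPKM) except Ccl2, Ccl9 and Cxcl16 without LPS library 2 (0.22, 0.02 and 0.06, against -0.64, -0.47 and -0.15 at their most negative when another library was left out) and Cxcl16 without both libraries numbered 2 (0.07, the same with the block), causes not tested. The median over the tested ligands was -0.46 and ran from -0.73 to -0.26 on leaving out each library in turn, lowest without ultrasound library 2 and highest without LPS library 2. Ccl3 stood at -0.91 with quantile normalization, against -0.60. With the replicate block, 2 ligands were called lower, also with median-ratio scaling, quantile normalization, a pseudocount of 0.1 or without both libraries numbered 1. With the block and equal FPKM sums 3 were, and with the block and no filter, or without both libraries numbered 2 or 3, 0 were. Settings with the block plus another change were chosen after seeing the data.

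Over all genes, 2 were called higher and 0 lower. The counts were 1 and 0 at a mean of at least 5 FPKM, 4 and 1 with equal FPKM sums (also without mitochondrially encoded genes), 71 and 152 with sample weights, 5 and 3 at a threshold of 0.1, 5 and 1 without both libraries numbered 2, and 2 to 6 and 0 to 2 on leaving out each library. With the replicate block they were 4 and 9 (the same with a pseudocount of 0.1), 46 and 175 with equal sums, 5 and 13 with median-ratio scaling, 4 and 8 with quantile normalization, 7 and 9 without both libraries numbered 1, and 0 and 0 with no filter or without both libraries numbered 2 or 3. Equal sums moved the genes at an unadjusted p below 0.05 from 697 higher and 1032 lower to 524 and 1211. The number of libraries and the unknown depth limit what the low ligands Ccl7 and Cxcl10 can show.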
